A study of Mus musculus with 8 samples.

Results

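The Polycomb repressive complex 2 (PRC2) subunits described here are 10 mouse genes: Ezh2, Ezh1, Eed, Suz12, Rbbp7, Mtf2, Phf1, Phf19, Jarid2 and Aebp2. They were chosen by name, through the RefSeq symbol of each probe's accession, from 20887 genes that the array probes matched. They were measured in LSK cells, a marrow fraction negative for lineage markers and positive for c-Kit and Sca-1 that holds the blood stem cells, and in MEP, the megakaryocyte and erythroid progenitors. Marrow of 4 genotypes was put into lethally irradiated wild-type recipients carrying CD45.1, and both fractions were sorted 2 months later. The donors of the JAK2V617F/Ezh2Δ/Δ group were JAK2V617F;Ezh2flox/flox;Cre-ERT2, those of the JAK2V617F group JAK2V617F;Cre-ERT2, those of the Ezh2Δ/Δ group Ezh2flox/flox;Cre-ERT2, and those of the WT group Cre-ERT2. All 4 groups therefore carried Cre-ERT2, the recombinase that acts once it is induced, and Ezh2 was deleted 4 weeks after transplantation. The strain is labelled C57BL/6, and JAK2V617F is the activated kinase of myeloproliferative neoplasms. The promoter behind Cre-ERT2, the floxed exons, the animals' ages and the number of animals behind a sample are not given in the sources used here. Each of the 8 groups, 4 genotypes in 2 cell types, was read on 1 array, and nothing was measured again within a group.

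PRC2 places methyl groups on lysine 27 of histone H3, a mark of silenced genes. Ezh2 or its paralogue Ezh1 supplies the SET domain that transfers the methyl group, Eed reads the mark already made and stimulates the enzyme, Suz12 is the scaffold, and Rbbp7 is a histone-binding WD40 protein. A core carrying Mtf2, Phf1 or Phf19, the Polycomb-like proteins, is called PRC2.1, and a core carrying Jarid2 and Aebp2 is called PRC2.2. In blood, EZH2 is lost by mutation in a share of human myeloid neoplasms, and mouse stem cells without Ezh2 keep part of their H3K27 methylation through Ezh1. The question put to the arrays was whether the transcript of Ezh1, or of a partner, was higher where Ezh2 had been deleted.

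The genes lie apart in the genome. In GRCm38.p6, the assembly of the RefSeq table used for names and sequences, Ezh2 spans chr6:47530274-47595270 and Ezh1 chr11:101191115-101226463. Eed lies on chromosome 7, Suz12 on 11, Mtf2 on 5, Phf1 on 17, Phf19 on 2, Jarid2 on 13, Aebp2 on 6 and Rbbp7 on X. RefSeq promoter windows, from 250 bases before a transcript start to 50 bases after it, were found for all 10 genes, 14 windows in total. The windows of the catalytic pair, of Suz12 and of the 2 genes that differed between MEP and LSK are printed 5′ to 3′ on the gene's strand, because the results below turn on these genes. Capitals mark a match to the E2F motif, spelled TTTCCCGC or TTTGGCGC and searched on both strands.
Ezh2, chr6:47594981-47595280, minus strand: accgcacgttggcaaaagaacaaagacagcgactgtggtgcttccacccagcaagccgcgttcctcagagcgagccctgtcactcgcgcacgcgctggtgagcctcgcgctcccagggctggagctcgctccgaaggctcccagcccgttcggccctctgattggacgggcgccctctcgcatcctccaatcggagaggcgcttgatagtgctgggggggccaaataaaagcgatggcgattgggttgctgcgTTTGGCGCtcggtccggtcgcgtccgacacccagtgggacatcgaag
Ezh1, chr11:101226414-101226713, minus strand: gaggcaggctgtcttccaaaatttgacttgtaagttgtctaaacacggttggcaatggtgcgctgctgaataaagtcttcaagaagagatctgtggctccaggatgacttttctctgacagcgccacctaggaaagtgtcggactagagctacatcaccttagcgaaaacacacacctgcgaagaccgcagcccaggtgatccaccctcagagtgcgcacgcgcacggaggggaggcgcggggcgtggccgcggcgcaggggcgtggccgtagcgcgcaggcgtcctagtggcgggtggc
Suz12, chr11:79992856-79993155, plus strand: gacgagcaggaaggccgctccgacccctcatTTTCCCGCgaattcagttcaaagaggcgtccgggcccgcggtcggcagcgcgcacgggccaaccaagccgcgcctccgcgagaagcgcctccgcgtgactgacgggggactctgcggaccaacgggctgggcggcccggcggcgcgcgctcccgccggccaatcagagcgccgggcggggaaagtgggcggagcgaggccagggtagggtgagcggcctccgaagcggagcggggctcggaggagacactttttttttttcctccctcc
Mtf2, chr5:108065424-108065723, plus strand: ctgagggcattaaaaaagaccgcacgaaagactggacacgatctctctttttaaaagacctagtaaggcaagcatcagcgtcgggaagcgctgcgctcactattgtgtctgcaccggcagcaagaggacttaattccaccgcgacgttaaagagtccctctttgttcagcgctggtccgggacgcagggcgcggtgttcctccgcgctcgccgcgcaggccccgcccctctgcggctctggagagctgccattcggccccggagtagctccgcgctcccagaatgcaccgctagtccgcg
Phf19, chr2:34913927-34914226, minus strand: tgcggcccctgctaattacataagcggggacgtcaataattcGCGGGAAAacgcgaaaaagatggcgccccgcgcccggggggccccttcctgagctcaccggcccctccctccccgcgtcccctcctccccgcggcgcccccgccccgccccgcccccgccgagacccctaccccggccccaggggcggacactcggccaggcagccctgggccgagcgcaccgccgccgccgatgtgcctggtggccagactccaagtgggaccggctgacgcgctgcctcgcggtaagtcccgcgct

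An E2F match, the motif of factors that drive genes of DNA replication, stood in windows of 3 of the 10 genes, Ezh2, Suz12 and Phf19, against 1.56% of all 32851 RefSeq windows of this length. The Ezh2 match begins at base 254 of its window, within the transcript, and the Phf19 match lies on the opposite strand. The Ezh1 and Mtf2 windows printed have no such match. TTCNNNGAA, the motif of the STAT factors that JAK2 phosphorylates, was in 0 of the 14 windows, against 8.30% of all windows. The GATA motif, A or T followed by GATA and then A or G and searched on both strands, was found in Ezh2 alone among the 10, against 29.8% of all windows, and the ETS motif CCGGAA in Jarid2 and Aebp2, against 14.9%. CCAAT was found in 7 of the 10, against 37.4% of all windows, and for Mtf2 only in a window other than the one printed. A gene counts here if any of its windows matches, and Mtf2, Jarid2 and Aebp2 have several. Counts of genes and shares of single windows are therefore not like measures. The printed windows are rich in the dinucleotide CG, with 31 in Ezh2, 23 in Ezh1, 41 in Suz12, 30 in Mtf2 and 38 in Phf19, where the median of all windows was 7. A match describes the letters of a window and shows no binding.

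The share of probes well above background was 39.8% to 48.8% per array. All 8 arrays lay on 1 slide, with the cell type along one side of the grid and the genotype along the other, so position on the slide and group cannot be told apart. The sorted fractions carried their markers: all 10 MEP markers (Gata1, Klf1 and others) were called higher in MEP than in LSK, and 9 of 10 LSK markers lower. Ezh2 status went with the sex of the marrow on every array. Xist, the RNA of the inactive X chromosome, was at 1.39 to 2.85 on the 4 arrays labelled Ezh2-deleted and at -5.47 to -3.24 on the 4 others, and Eif2s3y, a gene of the Y chromosome, was at -6.24 to -4.97 on the arrays labelled Ezh2-deleted and at 2.36 to 3.38 on the others. The Ezh2 deletion and the sex of the marrow therefore cannot be told apart in these arrays. Levels here and below are log2 signals minus the array's own 75th percentile, which is thus at 0.

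All 10 genes were read well above background on all 8 arrays by the probe used, the brightest of each gene, and no probe of theirs was saturated. The genes have 16 probes, and 5 genes have more than 1. Effects were fitted over all 8 arrays with limma on 13187 genes, p-values were adjusted over those genes by Benjamini-Hochberg, and a gene was called at an adjusted p under 0.05. The Ezh2 deletion effect is the mean of 4 pairs of arrays matched for cell type and JAK2 genotype. By this test 94 genes, 0.713% of all tested, were called for the deletion effect, and 0 of the 10 PRC2 genes were. At an unadjusted p under 0.05 stood 1 of the 10, Mtf2, and 18.1% of all genes. The effects of the 10 had a median of -0.14 and 8 were negative, while all genes had a median of -0.09 and 60.4% were negative.

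**Figure D1:**
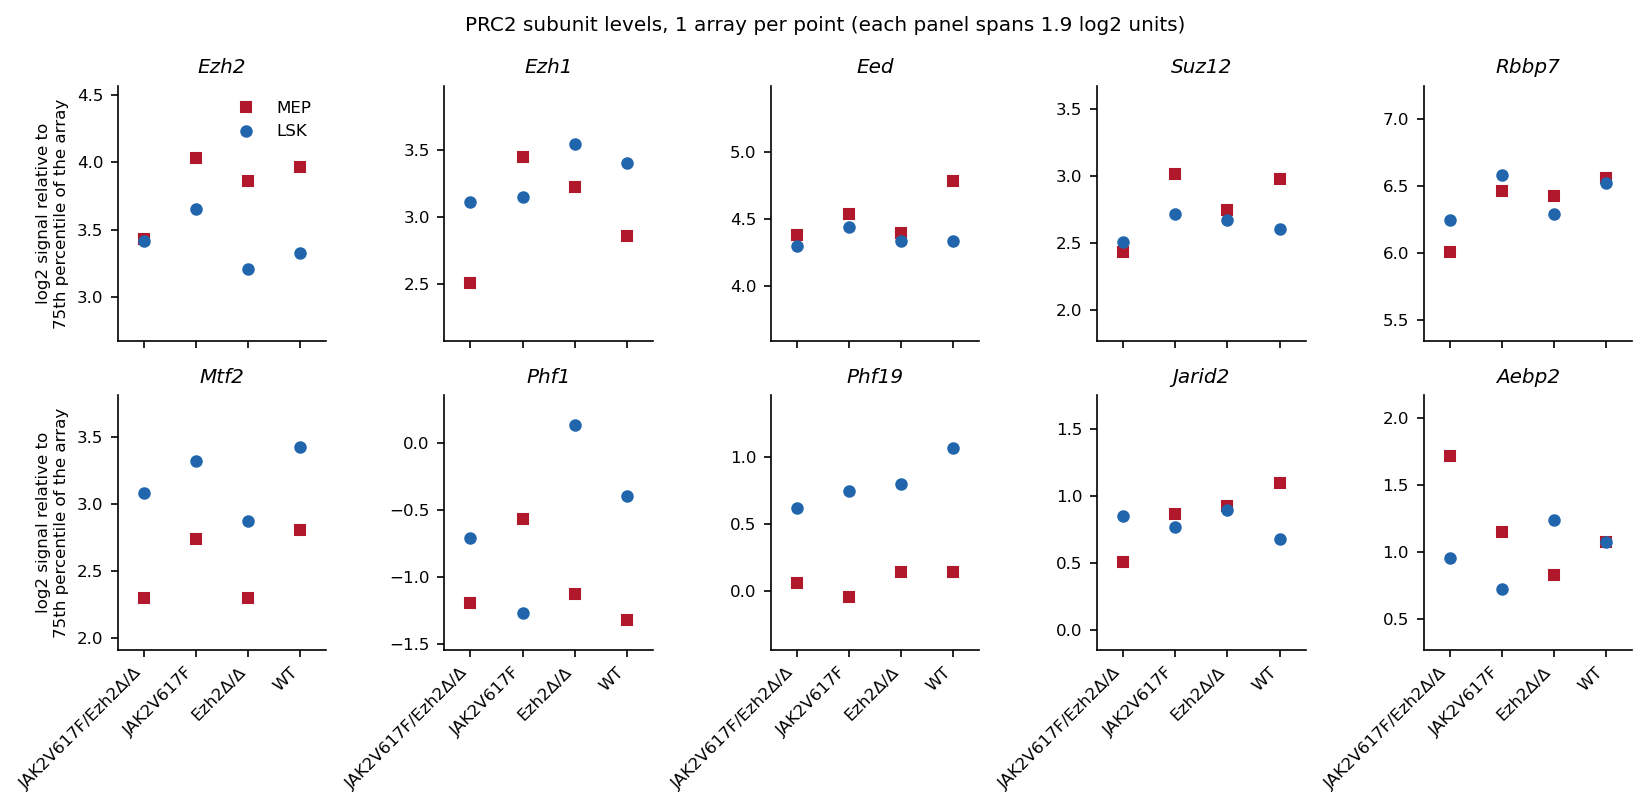
Level of each PRC2 gene on every array, as log2 signal minus the array's own 75th percentile, by genotype on the horizontal axis, with MEP as squares and LSK as circles. Each point is 1 array and each panel spans the same 1.9 log2 units. The MEP squares of Mtf2 and Phf19 all lie below the LSK circles, and the double-mutant MEP array is the lowest for Ezh1, Suz12, Rbbp7 and Jarid2.

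Ezh2, the deleted catalytic subunit, was still well above background on the 4 arrays labelled Ezh2-deleted. In LSK its level was 3.20 in Ezh2Δ/Δ against 3.33 in WT, and 3.41 in JAK2V617F/Ezh2Δ/Δ against 3.65 in JAK2V617F. In MEP it was 3.86 in Ezh2Δ/Δ against 3.96 in WT, and 3.43 in JAK2V617F/Ezh2Δ/Δ against 4.04 in JAK2V617F. The deleted array was the lower one in all 4 pairs, as it was for 26.2% of all genes, but the deleted and intact arrays overlapped. The mean difference was -0.27 (SE 0.17, limma adjusted p = 0.409), with a 95% interval from -0.67 to 0.13. A probe outside the deleted exons reads the shortened transcript as well as the whole one, and the files do not say which exon this probe reads. Its level therefore checks nothing about the deletion, and the groups are named here as their labels name them.

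Ordered by level, Ezh2 was highest in JAK2V617F MEP, WT MEP and Ezh2Δ/Δ MEP, followed by JAK2V617F LSK, JAK2V617F/Ezh2Δ/Δ MEP, JAK2V617F/Ezh2Δ/Δ LSK, WT LSK and Ezh2Δ/Δ LSK. The whole range was 0.83 log2 units. No step between neighbours in that order was larger than 0.24, the residual SD of the fit after moderation with that of all genes.

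Ezh1, the paralogue that can stand in the same place in PRC2, was not called higher in the Ezh2-deleted groups. In LSK its level was 3.55 in Ezh2Δ/Δ against 3.41 in WT, and 3.12 in JAK2V617F/Ezh2Δ/Δ against 3.15 in JAK2V617F. MEP gave 3.23 in Ezh2Δ/Δ against 2.86 in WT, and 2.51 in JAK2V617F/Ezh2Δ/Δ against 3.45 in JAK2V617F. The pairs went both ways, with differences of 0.14 and -0.03 in LSK and of 0.37 and -0.94 in MEP, and the groups overlapped. The mean difference was -0.11 (SE 0.23, limma adjusted p = 0.793), and an exact sign-flip permutation test over the 4 pairs gave p = 0.875, two-sided. The 95% interval ran from -0.65 to 0.42, so its upper end is a 1.34-fold higher level. A rise up to that size lies within the interval. The interval's end is not the smallest rise that could be called with 4 pairs, and a larger one could also miss the threshold over all genes. Protein was not measured. The direction of this small difference depended on the scaling: with quantile normalization it was 0.011. Without the JAK2V617F MEP array it was 0.13, and without the JAK2V617F/Ezh2Δ/Δ MEP array 0.056.

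Relative to the signal of the Ezh2 probe, Ezh1 changed by 0.15 more on the log2 scale, averaged over the pairs (SD 0.34, n = 4 pairs). That probe may also read the shortened transcript, so this reference may not be the level of whole Ezh2 transcript. The difference of changes was 0.27 and 0.21 in the LSK pairs and 0.47 in the pair of Ezh2Δ/Δ and WT MEP, and it was -0.33 in the pair of JAK2V617F/Ezh2Δ/Δ and JAK2V617F MEP. An exact sign-flip permutation test over the 4 pairs gave p = 0.5, two-sided. With 4 pairs no two-sided p under 1 in 8 can be reached, so this test cannot pass 0.05. Fitted within a cell type, the Ezh1 effect was 0.06 in LSK (SE 0.34, limma adjusted p = 0.975) and -0.29 in MEP (SE 0.34, limma adjusted p = 0.674).

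Ezh1 was highest in Ezh2Δ/Δ LSK and lowest in JAK2V617F/Ezh2Δ/Δ MEP. Between them came JAK2V617F MEP, WT LSK, Ezh2Δ/Δ MEP, JAK2V617F LSK, JAK2V617F/Ezh2Δ/Δ LSK and WT MEP, in falling order. Only the last step, of 0.35 from WT MEP to JAK2V617F/Ezh2Δ/Δ MEP, was larger than the moderated residual SD of 0.32.

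Ezh1 has a second probe that was well above background on all 8 arrays. It read 1.52 in Ezh2Δ/Δ LSK against 1.65 in WT LSK, and 1.30 in JAK2V617F/Ezh2Δ/Δ LSK against 1.25 in JAK2V617F LSK. For MEP it read 1.14 in Ezh2Δ/Δ against 0.98 in WT, and 0.52 in JAK2V617F/Ezh2Δ/Δ against 1.73 in JAK2V617F. Both probes put the double-mutant MEP array lowest. With every probe as a feature of its own, and p adjusted over 27609 probes, the effect of this one was -0.28 (SE 0.25, limma adjusted p = 0.584). The third Ezh1 probe was dim, at -5.01 to -2.91 and well above background on 3 of 8 arrays. Its effect in the same fit was 0.30 (SE 0.42, limma adjusted p = 0.724). Within MEP it was 0.57, where the brighter probes gave -0.29 and -0.52, and within LSK it was 0.04. Beyond that fit, it entered only the setting that averages a gene's probes, in which the Ezh1 effect was -0.03.

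**Figure D2:**
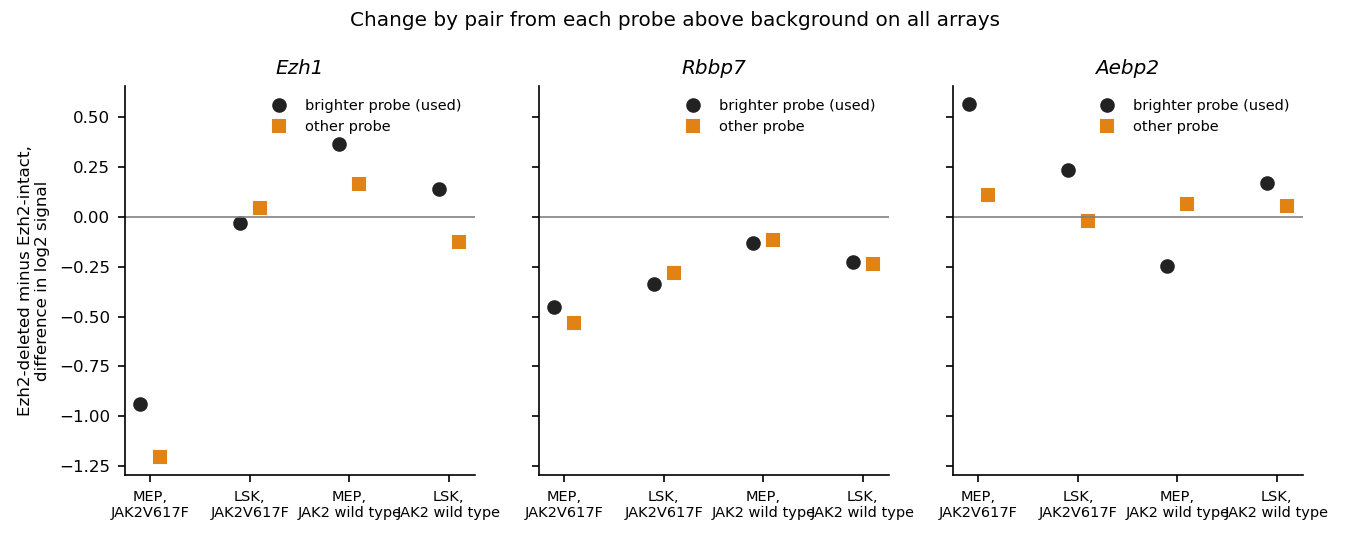
Difference in log2 signal between the Ezh2-deleted and the Ezh2-intact array of each matched pair, for the 3 genes with more than 1 probe above background on all 8 arrays; circles are the brighter probe, which was used, and squares the other. For Ezh1 both probes are lowest in the JAK2V617F MEP pair, all 8 points of Rbbp7 lie below 0, and the probes of Aebp2 differ in size and partly in sign.

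No core partner was called higher in the Ezh2-deleted groups either. Eed was at 4.34 in Ezh2Δ/Δ LSK against 4.34 in WT LSK, and at 4.30 in JAK2V617F/Ezh2Δ/Δ LSK against 4.45 in JAK2V617F LSK. Among MEP it was at 4.40 in Ezh2Δ/Δ against 4.78 in WT, and at 4.38 in JAK2V617F/Ezh2Δ/Δ against 4.54 in JAK2V617F. Its mean difference was -0.17 (SE 0.15, limma adjusted p = 0.525). The 4 deleted arrays lay close together, at 4.35 ± 0.04 (SD, n = 4), and the intact ones were at 4.53 ± 0.19 (SD, n = 4).

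Suz12, the scaffold, was at 2.68 in Ezh2Δ/Δ LSK against 2.60 in WT LSK, and at 2.51 in JAK2V617F/Ezh2Δ/Δ LSK against 2.72 in JAK2V617F LSK. Its MEP levels were 2.75 in Ezh2Δ/Δ against 2.98 in WT, and 2.43 in JAK2V617F/Ezh2Δ/Δ against 3.01 in JAK2V617F. The groups overlapped, and the mean difference was -0.24 (SE 0.16, limma adjusted p = 0.424).

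Rbbp7, the histone-binding subunit, separated the arrays by Ezh2 status without passing the test. The 4 deleted arrays were at 6.29 and 6.25 in LSK and at 6.43 and 6.01 in MEP, against 6.52 and 6.59 in LSK and 6.56 and 6.46 in MEP for the intact ones. Every deleted array lay below every intact one, as for 5.17% of all genes in one direction or the other. The difference was -0.29 (SE 0.15, limma adjusted p = 0.328), and -0.29 (SE 0.15, limma adjusted p = 0.373) by its other probe, which also did not overlap between the groups. Rbbp7 is on the X chromosome, and the deleted arrays are those with Xist. Over the 453 X-linked genes tested the median effect was -0.02, against -0.10 over 12731 autosomal ones. The part of sex in the Rbbp7 difference was not tested.

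Of the PRC2.1 proteins, which direct the complex to CG-rich DNA, Mtf2 had the largest effect of the 10 genes. In LSK its level was 2.87 in Ezh2Δ/Δ against 3.42 in WT, and 3.08 in JAK2V617F/Ezh2Δ/Δ against 3.32 in JAK2V617F. In MEP the levels were 2.30 in Ezh2Δ/Δ against 2.81 in WT, and 2.30 in JAK2V617F/Ezh2Δ/Δ against 2.74 in JAK2V617F. The deleted array was the lower one in all 4 pairs, as it was for 26.2% of all genes, and over both cell types the deleted and intact arrays overlapped. The mean difference was -0.43 (SE 0.14), with a 95% interval from -0.76 to -0.11. Its unadjusted limma p was 0.0158, where 18.1% of all genes had one under 0.05, and it missed the threshold over all genes (limma adjusted p = 0.216). The other Mtf2 probe, for a different transcript, was not well above background on any array.

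Phf1, a Polycomb-like protein with a Tudor domain that binds methylated H3K36, had arrays that were spread widely. It was at 0.13 in Ezh2Δ/Δ LSK against -0.40 in WT LSK, and at -0.72 in JAK2V617F/Ezh2Δ/Δ LSK against -1.27 in JAK2V617F LSK. Over MEP it was at -1.13 in Ezh2Δ/Δ against -1.32 in WT, and at -1.20 in JAK2V617F/Ezh2Δ/Δ against -0.57 in JAK2V617F. In total 3 pairs were positive and the JAK2V617F MEP pair was negative, and the mean difference was 0.16 (SE 0.31, limma adjusted p = 0.779). Its direction also turned when the Ezh2Δ/Δ LSK array (-0.077) or the JAK2V617F LSK array (-0.083) was left out.

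Phf19, the third Polycomb-like protein, was not called for Ezh2 status. Its levels were 0.80 in Ezh2Δ/Δ LSK against 1.06 in WT LSK, and 0.62 in JAK2V617F/Ezh2Δ/Δ LSK against 0.74 in JAK2V617F LSK. Its MEP levels were close together, at 0.14 in Ezh2Δ/Δ against 0.14 in WT, and at 0.06 in JAK2V617F/Ezh2Δ/Δ against -0.04 in JAK2V617F. The mean difference was -0.07 (SE 0.14, limma adjusted p = 0.792), with a 95% interval from -0.41 to 0.26.

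Neither gene of the PRC2.2 pair was called. Jarid2, which binds nucleosomes carrying ubiquitin on histone H2A, was at 0.89 in Ezh2Δ/Δ LSK against 0.68 in WT LSK, and at 0.85 in JAK2V617F/Ezh2Δ/Δ LSK against 0.77 in JAK2V617F LSK. In MEP it was at 0.93 in Ezh2Δ/Δ against 1.10 in WT, and at 0.51 in JAK2V617F/Ezh2Δ/Δ against 0.87 in JAK2V617F. Both LSK pairs were positive and both MEP pairs negative, and the mean was -0.06 (SE 0.17, limma adjusted p = 0.853). The difference between the cell types was itself not called (-0.41, SE 0.29, limma adjusted p = 1.00). Leaving out the WT MEP array (0.012) or the JAK2V617F/Ezh2Δ/Δ MEP array (0.059) turned the sign of the mean.

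Aebp2, a zinc finger partner of Jarid2 in this form of the complex, was at 1.24 in Ezh2Δ/Δ LSK against 1.07 in WT LSK, and at 0.96 in JAK2V617F/Ezh2Δ/Δ LSK against 0.72 in JAK2V617F LSK. The MEP values were 0.83 in Ezh2Δ/Δ against 1.07 in WT, and 1.72 in JAK2V617F/Ezh2Δ/Δ against 1.15 in JAK2V617F. The mean difference, 0.18 (SE 0.22, limma adjusted p = 0.657), rested on the double-mutant MEP array, without which it was -0.015. Its other probe, for another transcript, gave 0.05 (SE 0.17, limma adjusted p = 0.883).

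**Figure D3:**
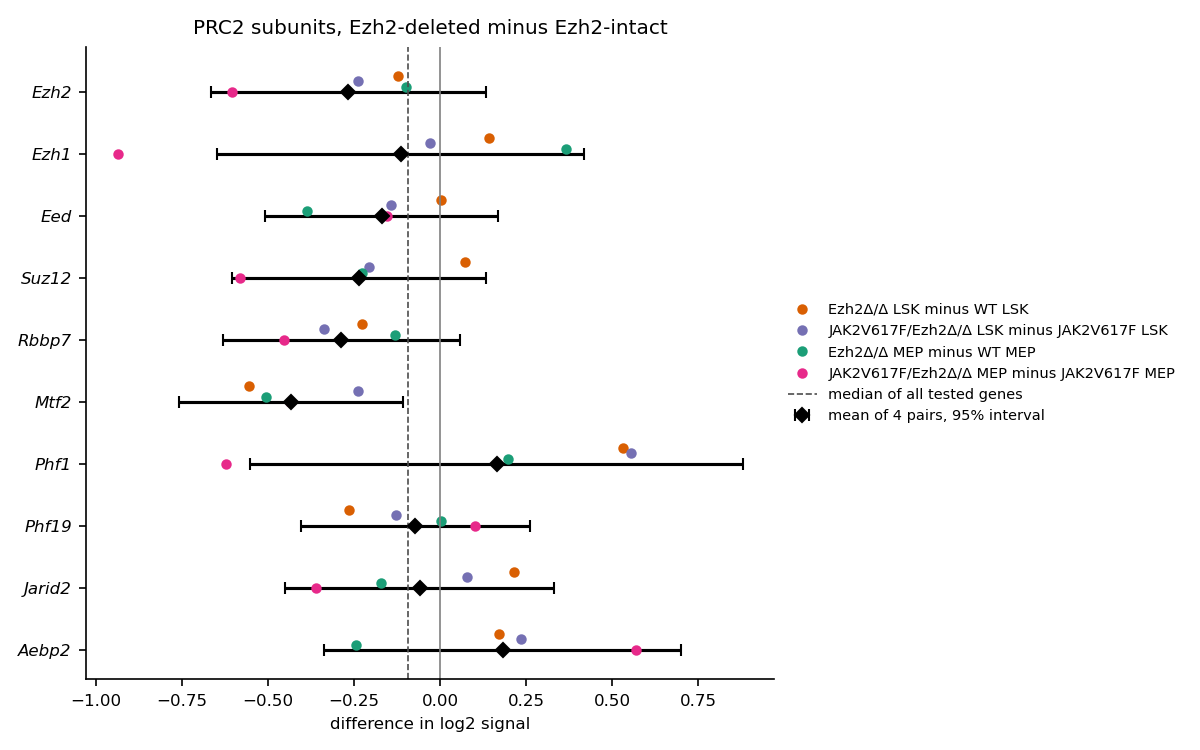
Difference in log2 signal between the Ezh2-deleted and the Ezh2-intact array for each PRC2 gene, with 1 coloured point per matched pair, the mean of the 4 pairs as a diamond with its 95% interval from limma, and the median of all tested genes as a dashed line at -0.09. The interval of Mtf2 alone lies wholly below 0, and the JAK2V617F MEP pair is the lowest point for Ezh2, Ezh1, Suz12, Rbbp7, Phf1 and Jarid2.

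The pair of JAK2V617F/Ezh2Δ/Δ and JAK2V617F MEP stood out among the 4. In it 3 of the 10 genes, Ezh2, Ezh1 and Phf1, were at least 1.5-fold lower in the double mutant and 0 were higher, and in the other 3 pairs no PRC2 gene was 1.5-fold apart either way. Across all genes 25.2% were at least 1.5-fold lower in that pair and 17.2% higher. The shares were 7.93% lower and 9.59% higher between Ezh2Δ/Δ and WT LSK, 6.5% and 11.6% between JAK2V617F/Ezh2Δ/Δ and JAK2V617F LSK, and 6.51% and 10% between Ezh2Δ/Δ and WT MEP. With 1 array on each side these are values of single arrays, with no test. On the JAK2V617F MEP array Phf1 was at -0.57, with -1.20 in the double mutant, -1.13 in Ezh2Δ/Δ and -1.32 in WT MEP. For Phf1 the double mutant thus lay between Ezh2Δ/Δ and WT, and the JAK2V617F array lay above them. Ezh1 was at 3.45, 2.51, 3.23 and 2.86 in those groups, in that order, and Ezh2 at 4.04, 3.43, 3.86 and 3.96. The linear level of the 10 MEP markers, each gene's signal over the array's 75th percentile, summed to 338 on the JAK2V617F/Ezh2Δ/Δ MEP array against 507 on the JAK2V617F MEP array, and that of 8 granulocyte markers to 266 on the double-mutant array against 147 on the JAK2V617F array. The part of cell composition in the PRC2 differences of this pair was not tested. In sorted bulk samples, fewer cells of a type and less RNA per cell cannot be told apart.

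No PRC2 gene was called for the deletion effect within LSK, where 0.144% of all genes were, or within MEP, where 0.584% were. The difference between those effects was called for 0.00758% of all genes and for 0 of the 10. Phf1 had the largest such difference among the 10, with 0.54 in LSK and -0.21 in MEP (difference -0.76, SE 0.37, limma adjusted p = 1.00). The interaction of Ezh2 status with JAK2V617F was called for 0 genes of all tested (0%) by limma, with 3.47% of all genes and 0 of the 10 at an unadjusted p under 0.05. For Ezh1 it was -0.74 (SE 0.40, limma adjusted p = 0.972), with a 95% interval from -1.70 to 0.22.

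Averaged over both cell types and both states of Ezh2, JAK2V617F was tied to no change in these genes that the test could call. Of all genes 0.311% were called for the JAK2V617F effect and 0 of the 10 were, and 0 of the 10 stood at an unadjusted p under 0.05, against 11.1% of all genes. The effects lay between -0.26 for Phf1 and 0.08 for Aebp2, with a median of -0.10, where the median of all genes was 0.01. Ezh2 differed by 0.04 (SE 0.17, limma adjusted p = 0.935) and Ezh1 by -0.20 (SE 0.23, limma adjusted p = 0.751). In the Ezh2-intact pairs Phf1 differed by -0.87 in LSK and 0.75 in MEP, and Ezh1 by -0.26 and 0.59. In the Ezh2-deleted pairs Phf1 differed by -0.85 in LSK and -0.07 in MEP, and Ezh1 by -0.43 and -0.72. Phf19 was lower in the JAK2V617F array of all 4 pairs, as were 9.41% of all genes, by -0.19 (SE 0.14, limma adjusted p = 0.651).

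PRC2 genes were called only between the cell types, where calls were common over all genes. Of all genes 41% were called between MEP and LSK, with 20.6% of all genes higher and 20.4% lower in MEP, and 2 of the 10 PRC2 genes were called, both lower in MEP. They are the Polycomb-like proteins Phf19 and Mtf2. The 10 genes thus held no larger share of calls than all genes did. Phf19 was at 0.06, -0.04, 0.14 and 0.14 in JAK2V617F/Ezh2Δ/Δ, JAK2V617F, Ezh2Δ/Δ and WT MEP, against 0.62, 0.74, 0.80 and 1.06 in LSK of the same genotypes. The difference was -0.73 (SE 0.14, limma adjusted p = 0.00571), a 1.66-fold lower level in MEP. Mtf2 was at 2.30, 2.74, 2.30 and 2.81 in MEP of those genotypes, against 3.08, 3.32, 2.87 and 3.42 in LSK. Its difference was -0.64 (SE 0.14, limma adjusted p = 0.00969), 1.55-fold lower in MEP. Each gene was lower in MEP in all 4 genotypes, as were 24.5% of all genes. The MEP and LSK arrays did not overlap for either gene, which holds for 35.9% of all genes in one direction or the other. Both calls held under the 11 other settings tried for them and with each array left out.

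Ezh2 had the opposite sign, at 3.82 ± 0.27 in MEP and 3.40 ± 0.19 in LSK (SD, n = 4 arrays each). It was higher in MEP in all 4 pairs, as were 31.3% of all genes, by 0.64 in WT, 0.38 in JAK2V617F, 0.66 in Ezh2Δ/Δ and 0.02 in JAK2V617F/Ezh2Δ/Δ. The mean of 0.42 (SE 0.17) did not pass the test with all arrays (limma adjusted p = 0.0825) and passed it without the JAK2V617F/Ezh2Δ/Δ MEP array (0.56, limma adjusted p = 0.0262). Ezh1 was at 3.01 ± 0.41 in MEP and 3.31 ± 0.21 in LSK (SD, n = 4 arrays each), lower in MEP in 3 of 4 genotypes, with a mean of -0.29 (SE 0.23, limma adjusted p = 0.329). Without the JAK2V617F MEP array the mean was -0.54 and was called (limma adjusted p = 0.0341), as was that of Phf1, -0.84 (limma adjusted p = 0.0191). With all arrays Phf1 differed by -0.49 (SE 0.31, limma adjusted p = 0.231).

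The other 5 genes were not called between the cell types. Eed was higher in MEP in all 4 pairs, by 0.17 on average (SE 0.15, limma adjusted p = 0.377), and Suz12 by 0.16 (SE 0.16, limma adjusted p = 0.429). Rbbp7 differed by -0.05, Jarid2 by 0.05 and Aebp2 by 0.20, each by less than its SE. Over all genes the median of MEP minus LSK was 0.12, and 0.01 with quantile normalization, under which Eed was lower in MEP (-0.062) and Phf19 and Mtf2 remained called lower.

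**Figure D4:**
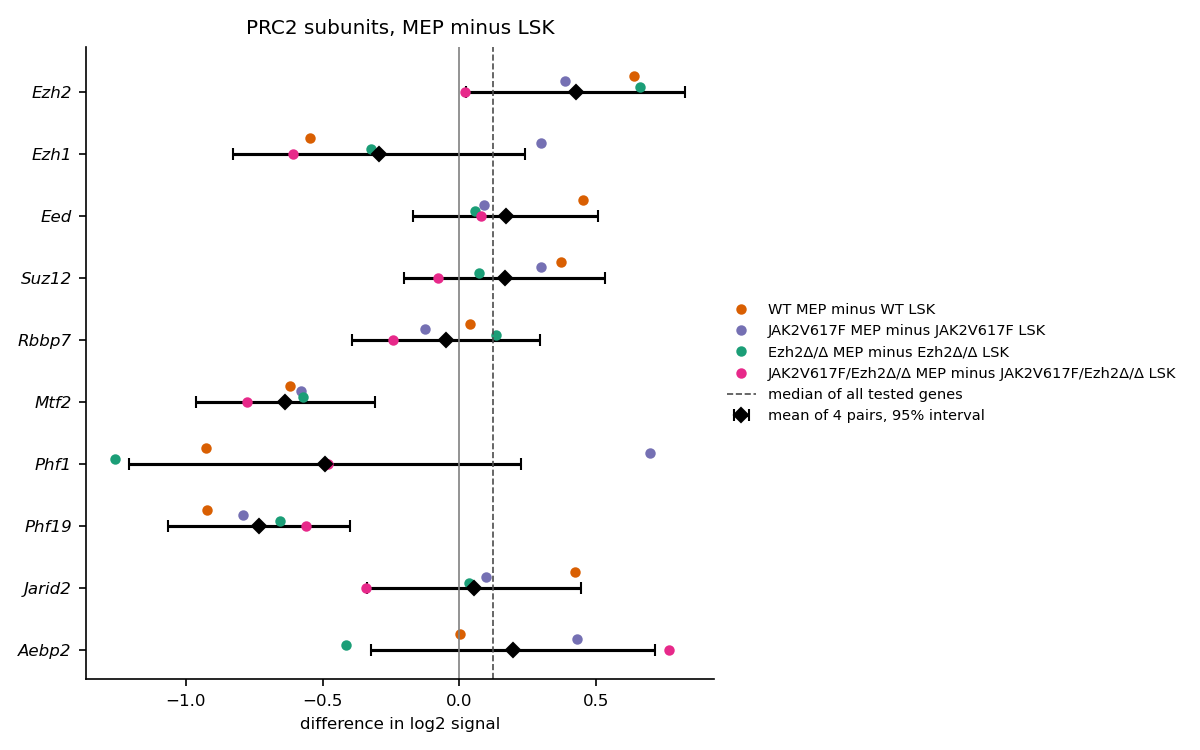
Difference in log2 signal between MEP and LSK for each PRC2 gene, with 1 coloured point per genotype, the mean of the 4 genotypes as a diamond with its 95% interval from limma, and the median of all tested genes as a dashed line at 0.12. All points of Mtf2 and Phf19 lie below 0, all points of Ezh2 and Eed above it, and Ezh1 and Phf1 have 1 positive point each, JAK2V617F.

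Across the 8 arrays the catalytic paralogues did not follow each other, with a Pearson correlation of -0.10. The correlation of Ezh2 was 0.81 with Suz12, 0.75 with Eed and -0.73 with Phf19, and that of Ezh1 with Phf1 was 0.75. Among the 10475 other genes well above background on all arrays, Suz12 ranked 2010, Eed 2699 and Phf19 9899 in likeness to Ezh2. Phf1 ranked 547 in likeness to Ezh1, so many genes outside PRC2 were more alike than these. Those most like Ezh2 were Arfip2 (0.996), Ube2m (0.996), Dazap1 (0.995), Dolpp1 (0.993) and Me2 (0.992). Most like Ezh1 were Ppp1r12a (0.953), Pxn (0.944), Kif16b (0.943), Map3k4 (0.941) and Pcmtd2 (0.939). These values describe 8 arrays that share a slide and fall into 2 cell types and 4 genotypes, so much of any likeness follows the groups, and no p is given.

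Of 43 listed other Polycomb genes and chromatin enzymes, 40 were tested. With Ezh2 deletion 1 was called higher and 0 lower, where 0.713% of all genes were called. That gene was Bmi1, a subunit of PRC1, the complex that reads the PRC2 mark. It was at 3.51 in JAK2V617F/Ezh2Δ/Δ LSK against 2.09 in JAK2V617F LSK, and at 3.35 in Ezh2Δ/Δ LSK against 2.24 in WT LSK. Its MEP levels were 3.65 in JAK2V617F/Ezh2Δ/Δ against 2.24 in JAK2V617F, and 3.94 in Ezh2Δ/Δ against 2.45 in WT. The groups did not overlap, as for 5.17% of all genes in one direction or the other. The difference was 1.36 (SE 0.15, limma adjusted p = 0.0136), a 2.56-fold higher level in the deleted groups. The median of the 40 was -0.07, beside -0.09 for all genes. None of the 4 listed further PRC2 partners, Rbbp4, Epop, Lcor and Lcorl, was called with Ezh2 deletion. Of their effects 1 was negative, and the median was 0.31, beside -0.09 for all genes. Within LSK 1 was negative, with a median of 0.15, beside -0.07 for all genes. Within MEP 0 were negative, with a median of 0.45, beside -0.11 for all genes.

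With JAK2V617F 0 of the 40 were called, beside 0.311% of all genes. Between MEP and LSK 6 of the 40 were called higher in MEP and 5 lower, where 20.6% of all genes were called higher and 20.4% lower. The list thus held no more calls than its share. Those higher were Ring1 (0.62), Pcgf1 (0.57) and L3mbtl2 (0.69) of PRC1 and the H3K9 methyltransferases Suv39h1 (0.55), Suv39h2 (0.45) and Setdb1 (0.68). Those lower included Epop (-0.90), a protein of PRC2.1, the PRC1 genes Pcgf5 (-0.75) and Cbx6 (-0.77), and the H3K36 methyltransferase Nsd2 (-1.21). These are differences in log2 signal, with limma adjusted p between 0.00363 and 0.0396.

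Cell cycle genes were measured beside these levels. Of 30 tested, 27 had a negative Ezh2 deletion effect, with a median of -0.31 and 0 called, where 60.4% of all genes were negative. Their summed linear level was 984 to 1113 in deleted LSK against 1121 to 1331 in intact LSK, and 1130 to 1404 in deleted MEP against 1410 to 1511 in intact MEP. Between MEP and LSK their median was 0.26, beside 0.12 for all genes. Of the 30 genes 4 were called higher in MEP, where 20.6% of all genes were. The summed MEP markers were at 338 to 490 in deleted MEP against 507 to 627 in intact MEP, and the 10 B lineage markers at 21.9 to 73.1 in deleted LSK against 17.1 to 20.2 in intact LSK and at 7.15 to 52.8 in deleted MEP against 3.10 to 3.36 in intact MEP. Pax5, a defining B-cell gene, was not well above background on any array. The part of proliferation or of these cells in the PRC2 values was not tested.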

How the data were processed

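Total RNA (20 ng a sample) was amplified, labelled with Cy3 and read on Agilent mouse arrays of 1 colour. Per the file headers, the deposited scanner files hold intensity values that Agilent Feature Extraction 10.7.1.1 background-subtracted and detrended, with no normalization between arrays. The authors also deposited a table of linear ratios, which on comparison is the processed signal over one factor for each array, and it served as an alternative. From these files, processed signals were averaged over a probe's spots, leaving out non-uniform ones, and the array's 75th percentile was taken off after log2. Of 55681 probes, 27509 were named through a RefSeq table and 28172 were not. A gene was read from its brightest probe and tested if that was well above background on at least 2 of 8 arrays. Fits used limma 3.58.1 in R 4.3.3, additive in cell type, JAK2 and Ezh2 status, nested in the cell type, or with an interaction, and were tested on simulated data. The number of arrays limits the precision. The limma p-values rest on the residual spread of each fit, moderated with that of all genes, and the sign-flip ones on the differences of matched pairs. With 1 array per group, neither measures the variation between animals of a group. Normexp used the median spot signal. The text names all 10 genes, the called genes of the list of other Polycomb genes except 1 that is not reported here, and the 5 genes most like Ezh1 and Ezh2. The members and lists were chosen with earlier results of these data known.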

Additional observations from a re-analysis of the deposited data

How the results depend on the processing

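The call of 0 PRC2 genes held for the Ezh2 deletion and JAK2V617F effects, within LSK, within MEP and for both interactions, under 12 other settings and with each array left out. Between MEP and LSK other settings gave 2 to 3 calls (3 at an adjusted p under 0.10), and leaving out 1 array gave 2 to 4, the 4 without JAK2V617F MEP. The Ezh1 difference with Ezh2 deletion was 0.011 after quantile normalization (limma adjusted p = 0.985) and between -0.27 and 0.13 with 1 array left out, and Ezh1 minus Ezh2 lay between -0.017, without WT MEP, and 0.36. With 1 array left out, signs also turned for Phf1 (-0.083 to 0.51), Jarid2 (-0.17 to 0.059) and Aebp2 (-0.015 to 0.39) with Ezh2 deletion and for Rbbp7 (-0.12 to 0.027), Jarid2 (-0.060 to 0.17) and Aebp2 (-0.0015 to 0.40) between MEP and LSK; Eed between MEP and LSK was -0.062 after quantile normalization. The causes were not tested. Over all genes the 94 Ezh2 calls became 130 with normexp, 32 with quantile normalization, 51 with no filter, 7 with a common floor, 182 with a variance trend and 12 to 103 with 1 array left out. The 41 JAK2V617F calls became 100, 27, 18, 0 and 122 in the same settings, 116 over probes above background on all arrays, and 0 to 44 with 1 array left out. The 5404 calls between MEP and LSK became 9779 with no filter. Scaling by the 75th percentile over probes, single probes as features, and a fit without sex-linked genes, in which Rbbp7 has no value, were chosen after seeing the data. Each group has 1 array, so dim genes and small effects are beyond reach, and the end of an interval is not the smallest effect that could be called. The fits and the sign-flip tests already compare arrays matched for cell type and genotype. Beyond that matching, with the replicate number as a block, no paired analysis was possible because each group has 1 array and all carry the same number.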
